A study of Saccharomyces cerevisiae with 14 samples.

Results

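The PHO regulon is the set of budding yeast genes that respond to inorganic phosphate. The 10 genes described here were chosen by name: *PHO84*, *PHO89*, *PHO5*, *PHO8*, *VTC3*, *PHM6*, *SPL2*, *PHO81*, *PHO80* and *PHO4*, 10 of the 6612 transcripts listed in each library. They were followed in *arp8-AA* cells and in ARP8 wild type, in 14 RNA-seq libraries. The *arp8-AA* strain (yPB4, MAT a, his3Δ1 leu2Δ0 ura3Δ0) carries S65A and S233A in Arp8, a subunit of the INO80 chromatin remodelling complex, which exchange to alanine the serines that DDK (Dbf4-dependent kinase) phosphorylates. The *ARP8* strain (yCFK51) is MAT a, his3Δ1 leu2Δ0 ura3Δ0 and in addition met15Δ0, so the *ARP8* and *MET15* genotypes cannot be told apart, and each genotype is represented by 1 named strain. Asynchronous cultures in rich medium gave 3 biological replicates per genotype. α-Factor arrest and release gave 2 per genotype at 10 min and 2 at 20 min. The paper describes its synchronised samples as representative of G1 and early S phase. The cell cycle markers given below differed between replicates at the same time after release. All 14 libraries come from cells in which no phosphate starvation is recorded, and the question was whether loss of the phosphorylation sites changes transcription.

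When phosphate is plentiful, the cyclin-dependent kinase Pho80-Pho85 phosphorylates the transcription factor Pho4 and keeps it out of the nucleus. When phosphate is scarce, the inhibitor Pho81 silences the kinase, and Pho4, together with Pho2, activates genes for phosphate uptake, phosphate release and polyphosphate storage. *PHO5*, *PHO8* and *PHO84* are classical models of promoter chromatin opening, in which nucleosomes over the promoter are removed on induction, and INO80 is among the remodellers studied at *PHO5* and *PHO84*. INO80 binding was not measured in these libraries, so the description of the 10 genes as INO80 targets could not be checked here.

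Pho4 binds the letters CACGTG or, with a T at the end, CACGTT. A search of the 600 bases before each start codon in the R64 reference (both strands; CACGTG reads the same on both, and no site can match both motifs) found either motif in 9 of the 10 genes and at least 2 copies in 8 of them. Over all 5898 genes searched, 24.6% had either motif and 3.65% had at least 2. *PHO4* itself had none and *PHO80* had 1 (AACGTG on the coding strand, the reverse complement of CACGTT, at -490 from the start codon). A match of letters is a description of the sequence and not of binding. The stretches below belong to *PHO5*, *PHO84*, *PHO89*, *VTC3* and *PHO81*, picked after their values were seen because their RNA differed between replicates after release, and show how the motifs are arranged upstream of them. They run 5′ to 3′ on the coding strand, with each motif within the stretch, or its reverse complement AACGTG, in capitals and 20 bases on either side.
PHO5: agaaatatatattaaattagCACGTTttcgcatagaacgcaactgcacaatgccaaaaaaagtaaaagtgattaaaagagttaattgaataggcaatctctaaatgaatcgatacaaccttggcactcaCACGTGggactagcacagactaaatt
PHO84: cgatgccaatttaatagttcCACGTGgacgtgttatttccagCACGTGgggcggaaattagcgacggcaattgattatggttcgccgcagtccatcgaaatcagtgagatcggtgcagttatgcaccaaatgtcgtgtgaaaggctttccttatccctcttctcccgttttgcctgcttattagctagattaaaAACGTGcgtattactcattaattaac
PHO89: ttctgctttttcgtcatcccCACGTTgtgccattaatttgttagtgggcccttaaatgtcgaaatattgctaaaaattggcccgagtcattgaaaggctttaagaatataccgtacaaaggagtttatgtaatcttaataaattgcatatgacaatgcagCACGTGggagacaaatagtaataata
VTC3: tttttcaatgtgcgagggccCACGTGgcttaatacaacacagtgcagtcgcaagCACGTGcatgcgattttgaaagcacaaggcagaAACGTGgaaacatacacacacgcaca
PHO81: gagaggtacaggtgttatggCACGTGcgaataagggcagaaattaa

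All 5 genes lie on the minus strand of R64. The *PHO5* stretch is chrII:431179-431333, from -382 to -228 relative to its start codon, and holds 1 CACGTT and 1 CACGTG. The *PHO84* stretch is chrXIII:26037-26256, from -456 to -237, with a pair of CACGTG copies close together and 1 AACGTG, and a further CACGTT lies at -587. It overlaps the annotated genes YML122C and YNCM0001W. The *PHO89* stretch is chrII:798820-799005, from -483 to -298, the *VTC3* stretch is chrXVI:517271-517383, from -365 to -253, and the *PHO81* stretch is chrVII:958529-958574, from -364 to -319, with a further AACGTG of *PHO81* outside it at -8. No annotated gene overlaps those of *PHO5*, *PHO89*, *VTC3* and *PHO81*. *SPL2* held 4 copies of CACGTG within the searched bases, the nearest at -31, yet it was the least abundant of the 10 transcripts.

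The libraries held 1864995 to 6016858 estimated counts. MAT a markers were present in every library, with none of the 5 genes at 0, and the 4 MAT alpha markers summed to between 0.380 and 12.5 TPM (a relative abundance corrected for transcript length). *ARP8* itself had 29.9 to 58.0 TPM in *arp8-AA* and 28.9 to 48.8 TPM in *ARP8*. In asynchronous cultures its values were wholly higher in *arp8-AA*, at 40.9 to 42.7 TPM against 30.0 to 34.8 TPM. Its RNA level does not check the alanine exchange. In asynchronous cultures replicate 1 stood apart: for *ARP8*, the chi-square per degree of freedom between libraries was 1.59 for replicates 2 and 3, against 11.4 and 11.1 for the pairs with replicate 1. For *arp8-AA* the contrast was weaker, with 3.13 for replicates 2 and 3, against 7.90 and 5.27. On the TPM scale the median of all tested transcripts was shifted between genotypes, by 0.12 (log2 of *arp8-AA* over *ARP8*) in asynchronous cultures, 0.15 at 10 min and 0.04 at 20 min. TPM values below therefore describe levels, and all fold changes and tests come from TMM-scaled counts, on which the median shift of the ratio of means was -0.01, -0.002 and 0.03.

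The members spanned a wide range of levels. In these bulk libraries fewer cells that transcribe a gene and less RNA per cell cannot be told apart. Averaged over the 14 libraries, *PHO8* had 86.9 TPM, *VTC3* 68.9, *PHM6* 37.1, *PHO4* 24.6, *PHO89* 14.6, *PHO84* 9.81, *PHO81* 7.76, *PHO5* 5.27, *PHO80* 5.10 and *SPL2* 0.541 TPM. The median of all listed transcripts was 22.5 TPM on the same average. The order of the first 2 genes held in 5 of the 6 groups, the exception being *arp8-AA* at 20 min. There *VTC3* (115 ± 95.5 TPM, SD, n = 2) and *PHO8* (105 ± 35.9 TPM, SD, n = 2) differed by less than their spread. The same was true in *arp8-AA* at 10 min, with 140 ± 18.7 TPM for *PHO8* and 133 ± 97.1 TPM for *VTC3* (SD, n = 2). *PHO5* and *PHO80*, neighbours at the low end, changed order between groups. In asynchronous *ARP8*, *PHO80* was wholly higher (4.17 to 4.31 TPM, against 2.71 to 3.69 TPM for *PHO5*). It was also wholly higher in *ARP8* at 20 min (4.89 to 7.04 TPM, against 3.64 to 4.37 TPM), and in the other groups the 2 genes overlapped. *PHO84* and *PHO89* overlapped in every group, and in *arp8-AA* at 10 min their SDs (37.9 and 66.4 TPM) were larger than their means (28.5 and 47.6 TPM, n = 2).

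**Figure D1:**
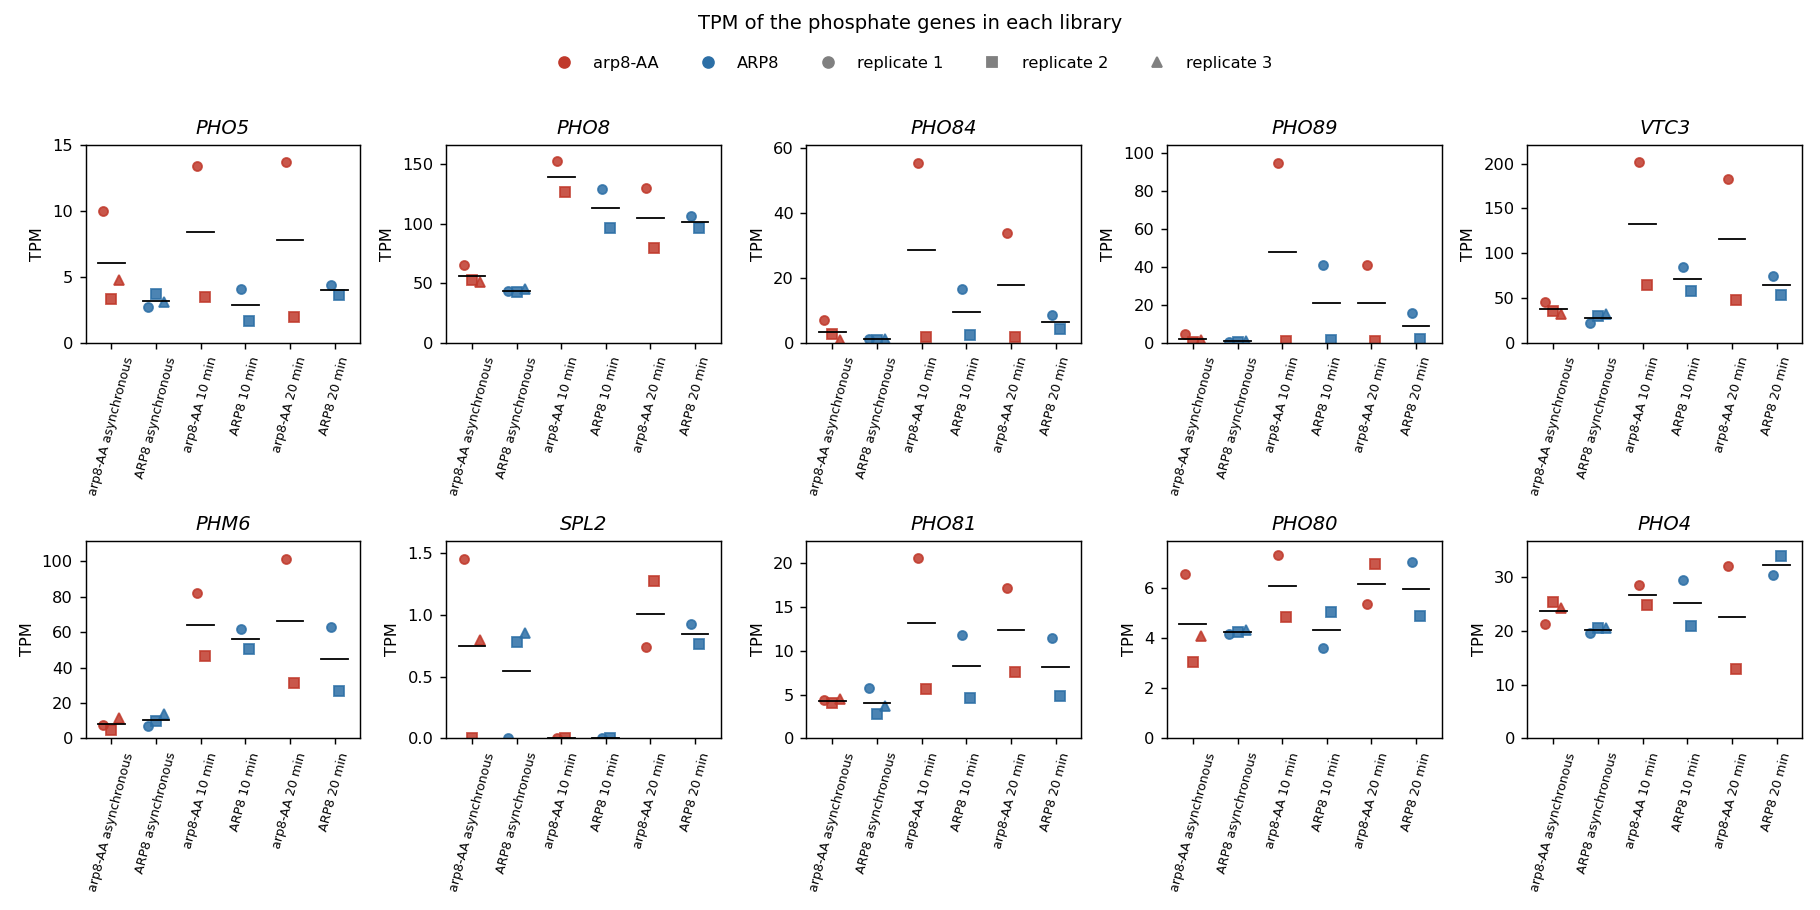
TPM (vertical axis, from 0, a scale for each gene) of the 10 members in each of the 14 libraries, grouped along the horizontal axis by genotype and culture, with replicates as symbols and the group mean as a line. At 10 and 20 min the replicate 1 libraries (circles) of *PHO84*, *PHO89*, *PHO81*, *VTC3* and *PHO5* lie above the replicate 2 libraries (squares), with *PHO89* at 15.6 to 94.5 TPM against 0.662 to 2.12 TPM.

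*PHO84* (YML123C_mRNA, chrXIII:24037-25800) encodes the high-affinity proton-coupled phosphate transporter of the plasma membrane. In asynchronous cultures it had 7.0, 2.56 and 0.700 TPM in *arp8-AA*, against 1.19, 0.678 and 1.18 TPM in *ARP8* (replicates 1 to 3). At 10 min it had 55.3 and 1.74 TPM in *arp8-AA*, against 16.4 and 2.49 TPM in *ARP8*, and at 20 min 33.7 and 1.86 TPM in *arp8-AA*, against 8.36 and 4.14 TPM in *ARP8*. The genotypes overlapped in every culture, and the high values all belonged to replicate 1. An annotated RNA, YNCM0001W, runs over the gene on the other strand, and since the quantification did not use strand, reads of both cannot be told apart.

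*PHO89* (YBR296C_mRNA, chrII:796798-798522) encodes the sodium-coupled phosphate transporter. It was scarce in asynchronous cultures, with 4.56, 0.154 and 1.43 TPM in *arp8-AA*, against 0.522, 0.417 and 0.910 TPM in *ARP8*, values that rest on 1 to 35 counts per library. After release it had 94.5 and 0.662 TPM at 10 min in *arp8-AA*, against 40.7 and 1.17 TPM in *ARP8*. At 20 min the values were 40.9 and 0.954 TPM in *arp8-AA*, against 15.6 and 2.12 TPM in *ARP8*. In both genotypes replicate 1 was high and replicate 2 was near the asynchronous level, so that the genotypes overlapped.

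*PHO5* (YBR093C_mRNA, chrII:429548-430951) encodes the repressible acid phosphatase of the periplasm. It had 10.0, 3.34 and 4.75 TPM in asynchronous *arp8-AA*, against 2.71, 3.69 and 3.07 TPM in *ARP8*. It had 13.4 and 3.44 TPM at 10 min in *arp8-AA*, against 4.07 and 1.61 TPM in *ARP8*, and at 20 min 13.7 and 1.95 TPM in *arp8-AA*, against 4.37 and 3.64 TPM in *ARP8*. The 3 replicate 1 libraries of *arp8-AA* were the highest of all 14. *PHO5* has close relatives, and 19.8% of its 31-base words occur in another listed transcript (15.2% in *PHO3*, the constitutive acid phosphatase), so its estimates depend in part on how the reads were shared out.

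*PHO8* (YDR481C_mRNA, chrIV:1418550-1420250), the vacuolar alkaline phosphatase, was the most abundant member. Asynchronous *arp8-AA* libraries had 65.3, 52.6 and 50.7 TPM, against 43.3, 42.5 and 44.8 TPM in *ARP8*. At 10 min *arp8-AA* had 153 and 126 TPM, against 129 and 96.0 TPM in *ARP8*, and at 20 min 130 and 79.4 TPM, against 106 and 96.6 TPM in *ARP8*. In asynchronous cultures the TPM values of *PHO8*, *VTC3* and *PHO4* were wholly higher in *arp8-AA*, as were those of 19.4% of all 5204 transcripts tested, but on TMM-scaled counts, where the shift of all transcripts is removed, all 10 members overlapped.

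*VTC3* (YPL019C_mRNA, chrXVI:514511-517018) encodes a subunit of the vacuolar transporter chaperone complex, which makes polyphosphate. It had 45.5, 35.8 and 32.3 TPM in asynchronous *arp8-AA*, against 21.9, 30.1 and 31.6 TPM in *ARP8*. At 10 min it had 202 and 64.4 TPM in *arp8-AA*, against 84.9 and 58.2 TPM in *ARP8*, and at 20 min 183 and 47.8 TPM, against 74.7 and 53.3 TPM in *ARP8*. The replicate 1 library of *arp8-AA* was the highest in each culture.

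*PHM6* (YDR281C_mRNA, chrIV:1022007-1022321), a short phosphate-responsive gene of little known function, had 4.76 to 11.5 TPM in asynchronous *arp8-AA* and 7.09 to 13.9 TPM in asynchronous *ARP8*, from 3 to 9 counts per library. After release it had 82.1 and 46.5 TPM at 10 min in *arp8-AA*, against 61.7 and 50.8 TPM in *ARP8*, and 102 and 31.6 TPM at 20 min, against 62.8 and 27.0 TPM in *ARP8*. All 8 values after release were above all 6 asynchronous ones. The same held for *PHO8* (79.4 TPM or more, against 65.3 or less) and *VTC3* (47.8 TPM or more, against 45.5 or less). The median of all listed transcripts was also higher after release, at 23.4 to 26.6 TPM by group, against 17.7 and 19.4 TPM. The share of all transcripts apart in this way was not counted. The experiments were separate and were not tested against each other. *SPL2* (YHR136C_mRNA, chrVIII:374654-375100), whose product restrains the low-affinity transporters when phosphate is scarce, had at most 2 counts in any library. At 10 min it had 0 counts in all 4 libraries, which allows up to 0.499 to 1.27 CPM (counts scaled to library size) by library (3 counts, counting error only), and no difference in it was detectable at this depth.

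Among the regulators, *PHO81* (YGR233C_mRNA, chrVII:954674-958210), the inhibitor of Pho80-Pho85 and itself a Pho4 target, had 4.40, 4.0 and 4.44 TPM in asynchronous *arp8-AA*, against 5.79, 2.83 and 3.64 TPM in *ARP8*. It had 20.5 and 5.63 TPM at 10 min in *arp8-AA*, against 11.8 and 4.64 TPM in *ARP8*, and 17.1 and 7.53 TPM at 20 min, against 11.4 and 4.86 TPM in *ARP8*. The values at both times split by replicate as those of the transporters did. *PHO80* (YOL001W_mRNA, chrXV:325249-326130), the cyclin of the kinase, stayed between 3.04 and 7.30 TPM in *arp8-AA* and between 3.62 and 7.04 TPM in *ARP8*. *PHO4* (YFR034C_mRNA, chrVI:225020-225958), the activator, stayed between 12.9 and 32.2 TPM in *arp8-AA* and between 19.7 and 34.0 TPM in *ARP8*, with its lowest value in *arp8-AA* replicate 2 at 20 min.

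The genotype comparison was tested with edgeR's quasi-likelihood test on all transcripts that passed the count filter, blocked on replicate number, and a transcript was called at a Benjamini-Hochberg adjusted p under 0.05. In asynchronous cultures 6 of the 10 members passed the filter and 0 were called, where 0.942% of the 5204 transcripts tested were called. None of the 6 had an unadjusted p under 0.05, where 15.9% of all transcripts tested did, and DESeq2 called 0 as well. Fitted log2 fold changes (*arp8-AA* over *ARP8*) were 0.71 for *PHO5* (SE 0.38, adjusted p = 0.386), 0.31 for *VTC3* (SE 0.17, adjusted p = 0.412) and 0.23 for *PHO8* (SE 0.11, adjusted p = 0.355), and between -0.06 and 0.10 for *PHO80*, *PHO81* and *PHO4*. The median over the 6 was 0.16, beside -0.003 over all transcripts tested. *PHO84*, *PHO89*, *PHM6* and *SPL2* were too scarce for the filter. Without it, *PHO84* had a log2 fold change of 1.43 (SE 0.51, adjusted p = 0.149) and *PHO89* of 1.33 (SE 0.64, adjusted p = 0.335), and neither was called. In that fit the unadjusted p (edgeR) was 0.0104 for *PHO84* and 0.0472 for *VTC3*, and no other member was under 0.05. The share of all transcripts under 0.05 in that fit was not counted.

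At 10 min after release 9 members were tested and 0 were called, as were 0.0% of the 5453 transcripts. *PHO5*, with a log2 fold change of 1.30 (SE 0.50), was the 1 member with an unadjusted p under 0.05, as 2.82% of all transcripts had (edgeR, adjusted p = 0.9999). *PHO84* had a log2 fold change of 0.95 (SE 0.64), *PHO89* of 0.75 (SE 0.53), *VTC3* of 0.51 (SE 0.32) and *PHO81* of 0.40 (SE 0.22). The log2 fold changes of *PHO80*, *PHO8*, *PHM6* and *PHO4* lay between -0.05 and 0.20. The 9 members had a median of 0.40, beside -0.003 over all transcripts. When the 4 libraries of 10 min were fitted alone, *PHO84* (1.01, adjusted p = 0.0141) and *PHO5* (1.32, adjusted p = 0.0356) were called with edgeR, among 0.9% of 5331 transcripts, but that fit has few libraries to estimate the spread. Without *arp8-AA* replicate 1 at 10 min the log2 fold change of *PHO84* was -0.75 and that of *PHO89* -1.48.

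At 20 min 9 members were tested and 0 were called, where 0.0183% of transcripts were. *PHO81* was the 1 member with an unadjusted p under 0.05, as 7.15% of all transcripts had (edgeR, adjusted p = 0.694), with a log2 fold change of 0.59 (SE 0.22). *PHO84* had 0.92 (SE 0.70), *PHO89* 0.87 (SE 0.60), *PHO5* 0.69 (SE 0.48), *VTC3* 0.60 (SE 0.32) and *PHM6* 0.49 (SE 0.36) as log2 fold changes. *PHO8* and *PHO80* were at 0.00 and 0.02, and *PHO4* was at -0.59 (SE 0.29). The median over the 9 was 0.59, beside 0.02 over all transcripts. Without *ARP8* replicate 1 at 20 min the log2 fold change of *PHO84* was -0.96, that of *PHO89* -1.59 and that of *PHO5* -0.29.

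Over both times together 0 of 9 members were called, where 0.0917% of transcripts were, and 3 had an unadjusted p under 0.05, as 6.36% of all transcripts had. These were *PHO81* (log2 fold change 0.49, SE 0.16, adjusted p = 0.568), *PHO5* (1.00, SE 0.35, adjusted p = 0.681) and *VTC3* (0.55, SE 0.23, adjusted p = 0.768), all from edgeR's fit. Whether the genotype difference changed with time was tested as an interaction, for which 0 members and 0.0% of transcripts were called, and no member had an unadjusted p under 0.05, where 2.02% of all transcripts did. Its log2 values ran from -0.62 for *PHO5* to 0.53 for *PHM6*.

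Between 20 min and 10 min no member was called within either genotype, where 0.0183% of transcripts were called in *arp8-AA* and 0.11% in *ARP8*. In *arp8-AA* the log2 fold changes of 20 over 10 min ran from -0.82 (*PHO89*) to 0.18 (*PHO80*), and *PHO8*, at -0.36 (SE 0.16), was the 1 member with an unadjusted p under 0.05, as 9.98% of all transcripts had (edgeR, adjusted p = 0.485). In *ARP8* they ran from -0.94 (*PHO89*) to 0.51 (*PHO5*), with 0 of 9 under 0.05, where 10.1% of all transcripts were. DESeq2 called no member in any of these comparisons between genotypes or times.

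**Figure D2:**
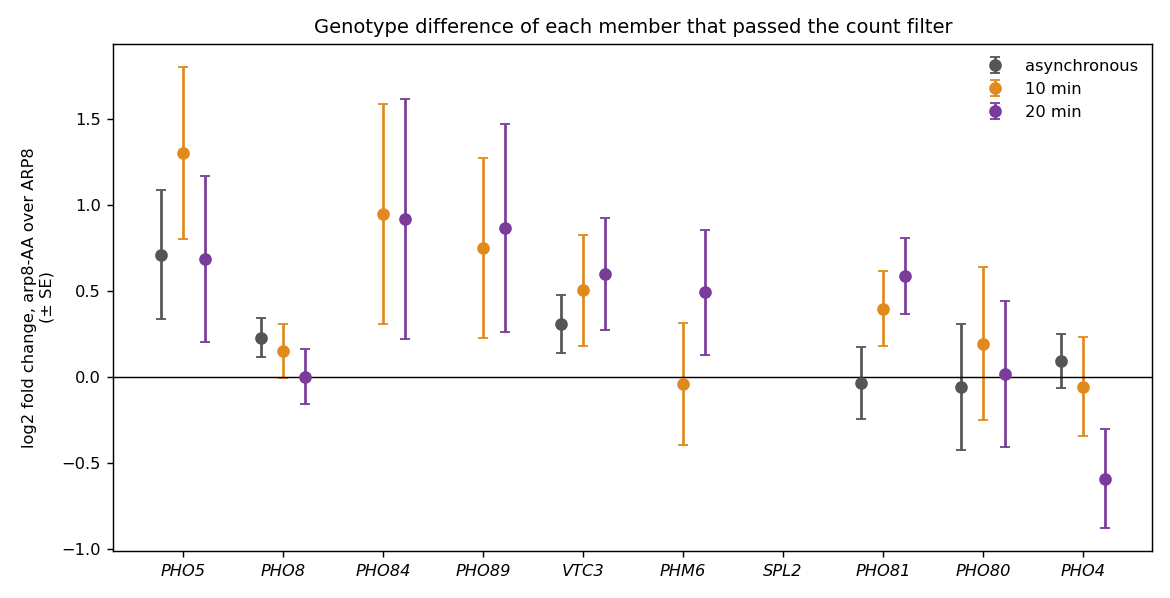
Fitted log2 fold change of *arp8-AA* over *ARP8* (vertical axis, bars ± SE) for each member that passed the count filter, in asynchronous cultures and at 10 and 20 min. All points of *PHO5*, *PHO84*, *PHO89* and *VTC3* lie above 0, with standard errors from 0.17 (*VTC3*, asynchronous) to 0.70 (*PHO84*, 20 min), and none was called.

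The genotype difference was also read within each pair of libraries that share a replicate number. Asynchronous and released cultures were separate experiments, so their replicate 1 pairs share a number and not a culture. The 10 and 20 min pairs of a replicate may come from 1 culture, which the labels do not state. Within replicate 1, *PHO84* was higher in *arp8-AA* in all 3 pairs (asynchronous, 10 and 20 min), by 2.43, 1.70 and 1.91 on the log2 scale of TMM-scaled counts. In the other 4 pairs it was higher in 1, with values of 1.86 and -0.96 in asynchronous replicates 2 and 3, -0.80 at 10 min and -1.07 at 20 min in replicate 2. *PHO89* differed by 1.17 and 1.29 in replicate 1 after release, and by -1.11 and -1.07 in replicate 2. *VTC3* differed by 0.93, 1.20 and 1.19 in the replicate 1 pairs, and by 0.19 or less in the other 4. *PHO5* differed by 1.80, 1.69 and 1.54 in the replicate 1 pairs, and by -0.79 to 0.80 in the other 4.

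*PHO81* did not share this split. It was higher in *arp8-AA* in 5 of 7 pairs, with 0.75 and 0.48 in replicate 1 after release, -0.01 and 0.71 in replicate 2, and -0.52 in asynchronous replicate 1. *PHO8* was higher in *arp8-AA* in 5 of 7 pairs, by at most 0.47, in all 3 of replicate 1 and in 2 of the other 4. *PHM6* was higher in all 3 pairs of replicate 1 and in 1 of the other 4. *PHO4* was higher in 2 of 7, with -1.32 in replicate 2 at 20 min. Some of the further phosphate genes described below were also higher in all 3 replicate 1 pairs, such as *PHO85*, and others in 0 of 3, such as *KCS1*. The share of all transcripts with such a split was not counted. These differences of single pairs are values with no test, and the difference between the replicate 1 pairs and the others was not tested either.

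**Figure D3:**
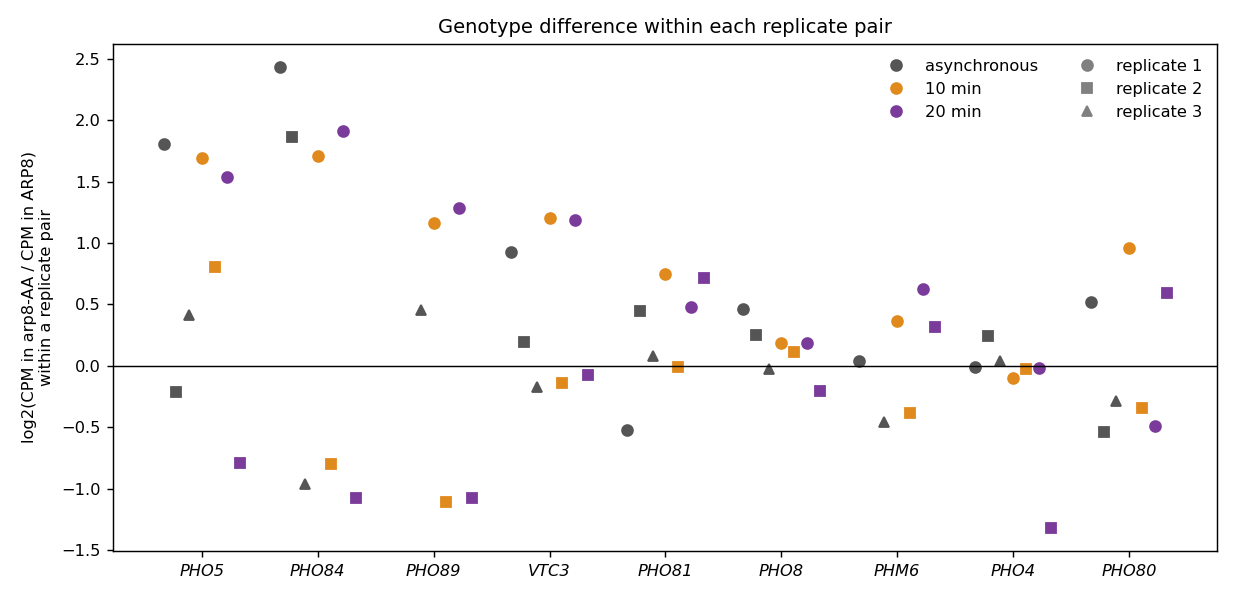
Log2 ratio of TMM-scaled CPM in *arp8-AA* over *ARP8* (vertical axis) within each replicate pair, for the 9 members with over 3 counts in both libraries of at least 1 pair. Symbols give the replicate number, counted separately in asynchronous and released cultures, and colours give the culture. For *PHO5*, *PHO84* and *VTC3* the 3 replicate 1 pairs (circles) lie between 0.93 and 2.43, and for *PHO84* and *PHO89* the replicate 2 pairs after release (squares) lie between -1.11 and -0.80.

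After release 5 members were higher in replicate 1 than in replicate 2. This comparison was added after the data were seen and used the block term of the same edgeR fit, across 4 libraries per replicate. Of the 9 members tested, 5 were called higher in replicate 1, where 11.2% of all 5453 transcripts were, and 0 were called lower, where 10.8% were (edgeR; DESeq2 called 4). The 5 were *PHO89*, *PHO84*, *PHO5*, *PHO81* and *VTC3*. The median log2 fold change over the 9 was 0.95, beside -0.01 over all transcripts. The 2 time points of a replicate may come from 1 culture, which the labels do not state, so these p-values may rest on fewer independent cultures than libraries. With 1 replicate number on each side, they also do not measure how far repeats of the experiment differ.

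The transporters moved most. *PHO89* had 40.9 to 94.5 TPM in *arp8-AA* and 15.6 to 40.7 TPM in *ARP8* in replicate 1, and 2.12 TPM or less in all 4 libraries of replicate 2, a log2 fold change of 5.11 (SE 0.45, adjusted p = 4.7e-05, edgeR). *PHO84* had 8.36 to 55.3 TPM in replicate 1, against 1.74 to 4.14 TPM in replicate 2 (log2 fold change 3.13, SE 0.49). The ratio of replicate 1 over replicate 2 for *PHO84* was 28.3 at 10 min and 15.5 at 20 min in *arp8-AA*, against 5.0 and 1.96 in *ARP8*. For *PHO89* it was 127 and 36.7 in *arp8-AA*, against 26.4 and 7.14 in *ARP8*.

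*PHO5* had 4.07 to 13.7 TPM in replicate 1, against 1.61 to 3.64 TPM in replicate 2 (log2 fold change 1.47, SE 0.35, adjusted p = 0.0148, edgeR). *PHO81* had 11.4 to 20.5 TPM, against 4.64 to 7.53 TPM (1.21, SE 0.16), and *VTC3* 74.7 to 202 TPM, against 47.8 to 64.4 TPM (0.95, SE 0.23, adjusted p = 0.0170). In TMM-scaled counts every replicate 1 value of these 5 genes was above every replicate 2 value, as for 12.6% of all 5453 transcripts, and in TPM this held for the 5 and for *PHM6*, as for 20.5% of all transcripts. The calls of *PHO89*, *PHO84* and *PHO81* held without any 1 library, whereas those of *PHO5* (adjusted p up to 0.0771) and *VTC3* (up to 0.0681) were lost without either replicate of *arp8-AA* at 10 min or at 20 min. That of *PHO5* was also lost when it was summed with *PHO3*, *PHO11* and *PHO12* (log2 fold change 0.34), of which *PHO3* alone had 42.4 to 103 TPM after release. That of *VTC3* was lost with DESeq2 (adjusted p = 0.0550). *PHM6* had a log2 fold change of 0.78 (SE 0.26, adjusted p = 0.0538). *PHO8*, *PHO4* and *PHO80* had -0.09 to 0.23, with overlapping replicates.

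The replicates also differed in markers of the cell cycle and of the pheromone response. The 3 pheromone-induced genes *FUS1*, *FIG1* and *AGA1* summed to 545 to 713 TPM in replicate 1, against 48.8 to 83.5 TPM in replicate 2. The 5 MAT a genes, several of which pheromone also raises, summed to 1740 to 2860 TPM, against 326 to 1030 TPM, and the 8 histone genes, which are transcribed in S phase, to 2692 to 15001 TPM, against 9819 to 24883 TPM. No gene of these lists was at 0 in any library. The histone sums of the asynchronous libraries were 10225 to 12439 TPM, and that of *ARP8* replicate 2 at 10 min was 14063 TPM. Within a replicate the markers also differed between genotypes. The pheromone genes summed to 77.8 TPM in *arp8-AA* and 48.8 TPM in *ARP8* at 20 min in replicate 2, and to 713 TPM in *arp8-AA* and 655 TPM in *ARP8* at 10 min in replicate 1. At 20 min in replicate 1 they were lower in *arp8-AA*, with 545 TPM against 577 TPM in *ARP8*. At 10 min in replicate 2 the sums were 83.5 TPM in *arp8-AA* and 82.3 TPM in *ARP8*.

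Among the cell cycle markers, the sums at 20 min were higher in *arp8-AA* for G1/S and lower for G2/M in both replicates. The 5 G1/S genes summed to 609 and 390 TPM in *arp8-AA* at 20 min, against 453 and 224 TPM in *ARP8*, and the 5 G2/M genes to 37.6 and 95.1 TPM, against 65.0 and 209 TPM. The G2/M sums of the asynchronous libraries were 80.8 to 100 TPM. The histone genes summed to 9479 and 24883 TPM in *arp8-AA* at 20 min, against 15001 and 24495 TPM in *ARP8*. At 10 min the G1/S genes summed to 455 and 730 TPM in *arp8-AA*, against 570 and 459 TPM in *ARP8*, the G2/M genes to 41.8 and 35.4 TPM, against 39.7 and 40.5 TPM, and the histone genes to 2692 and 9819 TPM, against 3447 and 14063 TPM. The 4 M/G1 genes summed to 42.5 and 21.3 TPM in *arp8-AA* at 10 min (replicates 1 and 2), against 25.4 and 13.9 TPM in *ARP8*. At 20 min they summed to 29.1 and 13.2 TPM in *arp8-AA*, against 24.3 and 13.3 TPM in *ARP8*. In each genotype and time the M/G1 sum was higher in replicate 1. These sums are values with no test. The part of these marker differences in the levels of the phosphate genes, between replicates or between genotypes, was not tested.

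**Figure D4:**
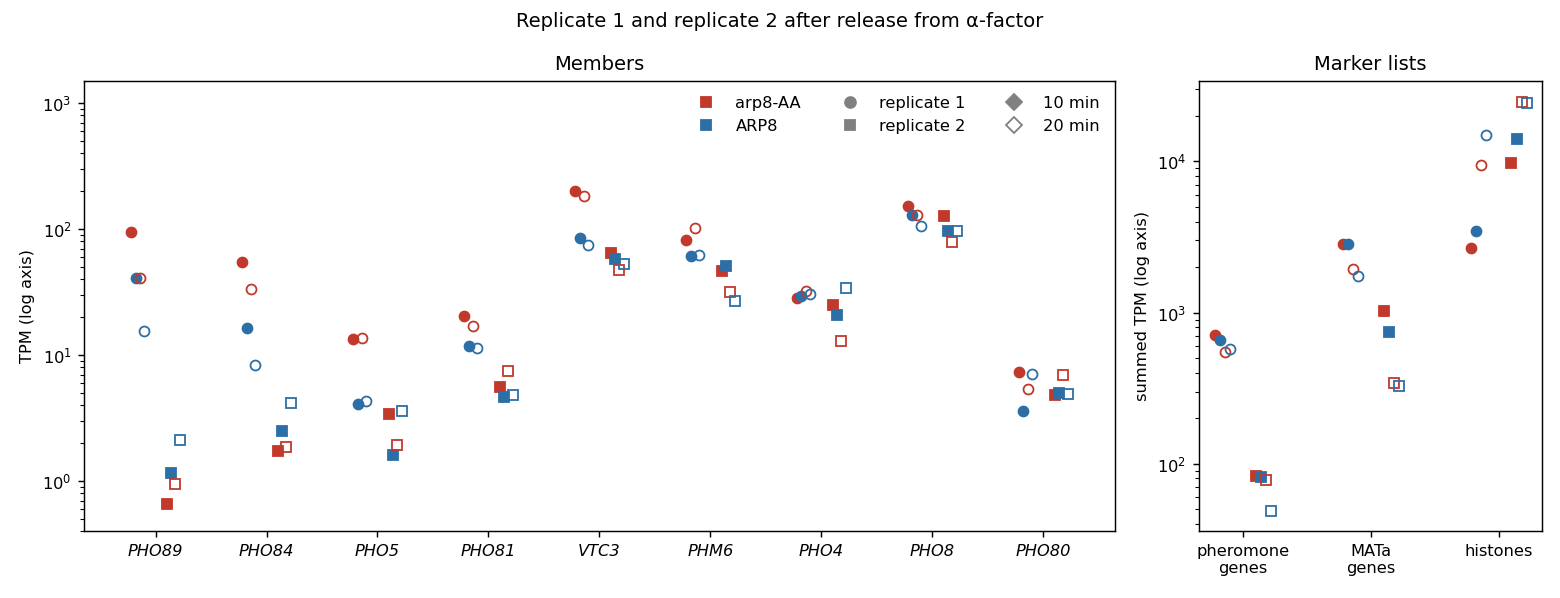
TPM of 9 members (left, log axis) and summed TPM of 3 marker lists (right, log axis) in the 8 libraries after release, with replicate 1 as circles and replicate 2 as squares, *arp8-AA* in red and *ARP8* in blue, 10 min filled and 20 min open. *PHO89*, *PHO84*, *PHO5*, *PHO81*, *VTC3* and the pheromone genes lie higher in replicate 1 in every library, whereas *PHO4*, *PHO8* and *PHO80* overlap.

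A list of 32 further genes of phosphate metabolism was examined alongside (regulators such as *PHO2* and *PHO85*, low-affinity transporters, phosphatases, polyphosphate enzymes and the glycerophosphocholine phosphodiesterase *GDE1*). In asynchronous cultures 30 were tested and 0 called by edgeR or DESeq2, and 5 (16.7%) had an unadjusted p under 0.05, as 15.9% of all transcripts had. The smallest p-values were those of *PHO12*, an acid phosphatase (log2 fold change 1.06, SE 0.22, adjusted p = 0.0580), *PHM8*, a lysophosphatidate and nucleotide phosphatase (1.11, SE 0.27, adjusted p = 0.0953), and *PPN1*, an endopolyphosphatase (0.33, SE 0.09, adjusted p = 0.132). *PHO12* had 16.3, 9.0 and 9.81 TPM in *arp8-AA*, against 5.74, 5.08 and 4.11 TPM in *ARP8*. Without the count filter *PHO12* (adjusted p = 0.0116) and *PHM8* (adjusted p = 0.0281) were called by edgeR, where 2.52% of 6267 transcripts were. *PHO12* and *PHO11* share 91.6% of their 31-base words, so their separate values are uncertain.

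After release 31 of the 32 were tested. At 10 min 0 were called, and the unadjusted p was under 0.05 for 2 (6.45%, beside 2.82% of all transcripts), *PHO12* (log2 fold change 1.36, SE 0.49) and *GDE1* (0.38, SE 0.15), followed by *VTC4*, the polyphosphate polymerase (0.48, SE 0.22). At 20 min 0 were called, and the unadjusted p was under 0.05 for 6 (19.4%, beside 7.15% of all transcripts), led by *VTC5* (-0.71, SE 0.21), another subunit of the chaperone complex, *PHO90*, a low-affinity transporter (-0.75, SE 0.25), and *PHO11* (1.14, SE 0.44). At 10 min fitted alone, *PHO12* and *PHO11* were called beside *PHO84* and *PHO5*.

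Between replicates 1 and 2 after release, 6 of the 31 were called higher in replicate 1, where 11.2% of all transcripts were, and 2 lower, where 10.8% were. The acid phosphatases *PHO12* (log2 fold change 2.52, SE 0.35) and *PHO11* (1.98, SE 0.32) were highest, *PHM8* was higher by 1.49 (SE 0.30) and *GDE1* by 0.70 (SE 0.11), and *PPN2*, another endopolyphosphatase, and *PHO13*, a phosphatase, were higher by 0.46 and 0.41. *PHO3*, the acid phosphatase that phosphate does not repress, was at -0.79, and *PHO88* (named *SND3* in the reference) at -0.42. The median over the 31 genes was 0.08.

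The transcripts most like each member were sought over the 14 libraries, on log2 CPM centred within each experiment, among the transcripts that passed the filter in both experiments. These correlations describe the libraries, which separate by replicate after release, and share library, depth and culture. For the mean profile of the 4 targets that passed (*PHO5*, *PHO8*, *VTC3* and *PHO81*), the closest was *PHO12* (r = 0.97 over 14 libraries, 0.97 over the 8 after release and 0.87 over the 6 asynchronous ones). It was followed by *ALD3*, an aldehyde dehydrogenase gene (r = 0.95), *PST1*, a cell wall protein gene (0.95), *MCR1*, a cytochrome b5 reductase gene of mitochondria (0.95), and *HSP12*, a stress protein gene (0.93). Singly, *PHO81* was closest to *YNR066C* (r = 0.95), *PHO4* to *TAF8* (0.95), *VTC3* to *DAP1* (0.93), *PHO5* to *SEC6* (0.93), *PHO8* to *HSF1* (0.92) and *PHO80* to *GMH1* (0.76). None of these 6 is in the phosphate lists.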

How the data were processed

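RNA from 6 asynchronous and 8 synchronised libraries was depleted of ribosomal RNA, made into directional libraries and sequenced in paired-end mode. According to their methods and the deposited processing notes, the authors pseudoaligned the reads with kallisto 0.48 to the Ensembl R64 transcriptome, which gave estimated counts and TPM per transcript. Default settings do not use strand. The deposited estimated counts were rounded to whole numbers and tested, and the deposited TPM served only to describe levels. The reference used for names, coordinates and sequences is R64, in which 5908 of 6612 transcripts had the same coding length.

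Counts were tested with edgeR 4.0.16 (R 4.3.3) by its quasi-likelihood test, with TMM scaling, filterByExpr (minimum count 10), a block for replicate number and p-values adjusted after Benjamini and Hochberg across every transcript in the fit, called under 0.05. Asynchronous and synchronised libraries were fitted apart. Same-numbered libraries of both genotypes deviated together (r = 0.174 to 0.329 over 3 asynchronous pairs), so the numbers were taken to pair the samples. Over 6 asynchronous pairs with different numbers r was -0.299 to 0.180, which overlaps that range. Deviations were taken from the mean of 3 replicates, so the 2 sets of r depend on each other. After release (r = 0.478 to 0.653) the check is mirrored by construction, since each group has 2 replicates. Log2 CPM for the correlations used a prior count of 2. The pipeline was tested on simulated counts without a replicate effect, so that test does not show how the calls behave where replicates differ. DESeq2 1.42.0, another scaling, no filter, no block, each library left out, other fits, and the acid phosphatase genes summed were alternatives, and the replicate comparison was added after the data were seen.

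Named genes were all 10 members, *ARP8*, the further phosphate genes called in any comparison or with the 3 smallest p-values in each genotype comparison, and the most correlated transcripts. *PHO12*, *PHM8*, *PPN2*, *PHO13*, *PHO3* and *PHO88* are also named for the added replicate comparison. The members and lists were chosen with earlier results of these data known. Counting intervals and floors cover counting error only.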

Additional observations from a re-analysis of the deposited data

How the results depend on the processing

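No member was called between genotypes or times under any alternative run, except *PHO5* and *PHO84* (2 of 9) when the 10-min libraries were fitted alone. That setting also called 2 further phosphate genes between genotypes at 10 min and 2 between times in *ARP8*, and fitting without the count filter called 2 in asynchronous cultures, against 0 in each case. Without the replicate block 0 members were called in every comparison, and the log2 fold change of *PHM6* at 10 min was 0.0032. Over all transcripts in asynchronous cultures 49 were called, against 4 without the block, 9 with all 14 libraries in 1 fit, 35 with DESeq2 and 158 without the filter. At 10 min 0 were called, against 5 with DESeq2 and 48 when fitted alone, and over both times 5 were, against 0 without the block, 18 with all 14 libraries in 1 fit, 25 without the filter and 28 with DESeq2. For 20 against 10 min, 1 was called in *arp8-AA* and 6 in *ARP8*, against 0 and 0 without the block, 38 and 28 with DESeq2, 22 and 12 without the filter, 33 and 13 with all 14 libraries in 1 fit, and 0 and 95 when fitted alone. Leaving out 1 replicate or library at a time gave 8 (without replicate 3) to 47 in asynchronous cultures, 0 to 1 at 10 min, 1 to 7 at 20 min, 0 to 3 over both times, 0 to 3 for genotype by time, 0 to 9 for time in *ARP8* and 0 to 54 for time in *arp8-AA*. The 7 and the 54 were without *arp8-AA* replicate 1 at 20 min, and the 0 over both times without either *ARP8* library of 10 min. Between replicates 1 and 2 it gave 602 to 882 of all transcripts, against 1203, with 602 to 638 when that library was of 10 min. The cause of these changes was not tested.

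At 20 min *PHO89* was at -0.15 on the log2 scale with DESeq2. *PHO8* was at -0.006 with DESeq2, -0.0061 with RLE size factors, -0.0019 when fitted alone and -0.013 with all 14 libraries in 1 fit. Leaving out 1 replicate or library at a time turned the direction of several uncalled log2 fold changes between genotypes. In asynchronous cultures *PHO81* ranged from -0.24 to 0.25 and *PHO80* from -0.40 to 0.14. At 10 min *PHO84* ranged from -0.75 to 1.67, *PHO89* from -1.48 to 1.26, *PHO4* from -0.20 to 0.054, *PHO80* from -0.21 to 0.78, *VTC3* from -0.0096 to 1.08 and *PHM6* from -0.58 to 0.59. At 20 min *PHO5* ranged from -0.30 to 1.31, *PHO84* from -0.96 to 1.87, *PHO89* from -1.59 to 1.37, *PHO8* from -0.22 to 0.20, *PHO80* from -0.33 to 0.45 and *PHM6* from -0.087 to 0.84.

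Between replicates 1 and 2, leaving out 1 library gave 3 to 6 members and 5 to 8 further phosphate genes called, and the log2 fold change of *PHO4* ranged from -0.030 to 0.39 and that of *PHO80* from -0.30 to 0.11. With the acid phosphatase genes summed, 5 further phosphate genes were called. These settings leave fewer libraries or genes, and the cause of the changes was not tested. Of the log2 fold changes recomputed, 429 kept their direction and side of the threshold and 38 changed direction. Few counts limit *SPL2*, *PHM6* and, in asynchronous cultures, *PHO84* and *PHO89*.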
